A study of Bos taurus with 8 samples.

Results

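The surfactant proteins, together with proteins that build and load the organelle in which surfactant is stored, were followed through the lungs of newborn Holstein calves. The genes were SFTPA1, SFTPB, SFTPC, SFTPD, ABCA3, LAMP3, CTSH, NAPSA, SLC34A2 and LPCAT1. They were taken from a fixed list of 10 names, and every array probe whose RefSeq accession belongs to a listed gene was used. Probes were found for 8 of the 10 genes, 15 probes among 43653 on the array, and NAPSA and LPCAT1 were matched by none and are not analysed here. The clones were 4 cloned calves with respiratory failure as the recorded disease status. The controls were 4 naturally conceived calves recorded as healthy, and the sample titles give an age of 4 days for all 8 animals. By the series' design text the clones had died within those 4 days and were sampled straight after death, while the controls were slaughtered at that age, so manner of death went with the group. How the clones were made, and whether they shared a donor line, is not given in the labels. Whole lung was used, so the values are sums over all cell types, and fewer cells of a type and less RNA per cell cannot be told apart.

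Surfactant is a film of phospholipid and protein that lowers surface tension in the alveoli and keeps them from collapsing on breathing out. It is made by alveolar type II cells, which assemble it in lamellar bodies, organelles related to lysosomes, and release it by exocytosis. SFTPB and SFTPC encode small hydrophobic proteins that are cut from larger precursors and help spread the lipid film, whereas SFTPA1 and SFTPD encode collectins, secreted lectins of innate defence that also act in surfactant structure and turnover. ABCA3 pumps phospholipid into the lamellar body, LAMP3 lies in its membrane, the protease CTSH takes part in precursor processing, and SLC34A2 is the sodium phosphate cotransporter of the type II cell surface.

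The series holds 1 one-colour array per animal, and values are given as log2 processed signal minus the 75th percentile of the same array. Between 78.8% and 83.5% of lung spots were well above background, and 0 were saturated. The 4 clone arrays lay on a slide of their own, scanned apart from the slide of the 4 normal animals, so slide, scan and group cannot be told apart. The 75th percentile itself was lower on every clone array (10.10 to 10.49) than on any normal array (10.59 to 10.89). Y-linked DDX3Y and USP9Y were detected in 3 clones and in 0 normal animals, so by these genes sex was not balanced between the groups. SFTPC, a type II cell marker, and AGER, a type I cell marker, were well above background on all 8 arrays. Clones varied more than normal animals in 90.0% of all kept probes, with a median SD ratio of 3.07.

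None of the 15 probes passed the threshold between clones and normal animals in limma, the linear model fitted to all 35636 probes well above background on at least 4 arrays. All 15 passed that filter and were well above background on all 8 arrays. Over all kept probes 0.177% passed an adjusted p of 0.05. At an unadjusted p under 0.05 the share was 13.2% of all probes and 0 of the 15. The groups were fully separated in 10.1% of all probes and in 0 of the 15. The median difference over the brightest probes of the 8 genes was 0.04, against -0.02 over 9867 genes, with 5 genes positive and 3 negative. Its median absolute size was 0.20, against 0.27 over all genes. All intervals span 0, and the width of each is what limits the size of a difference that these 8 animals could show.

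**Figure D1:**
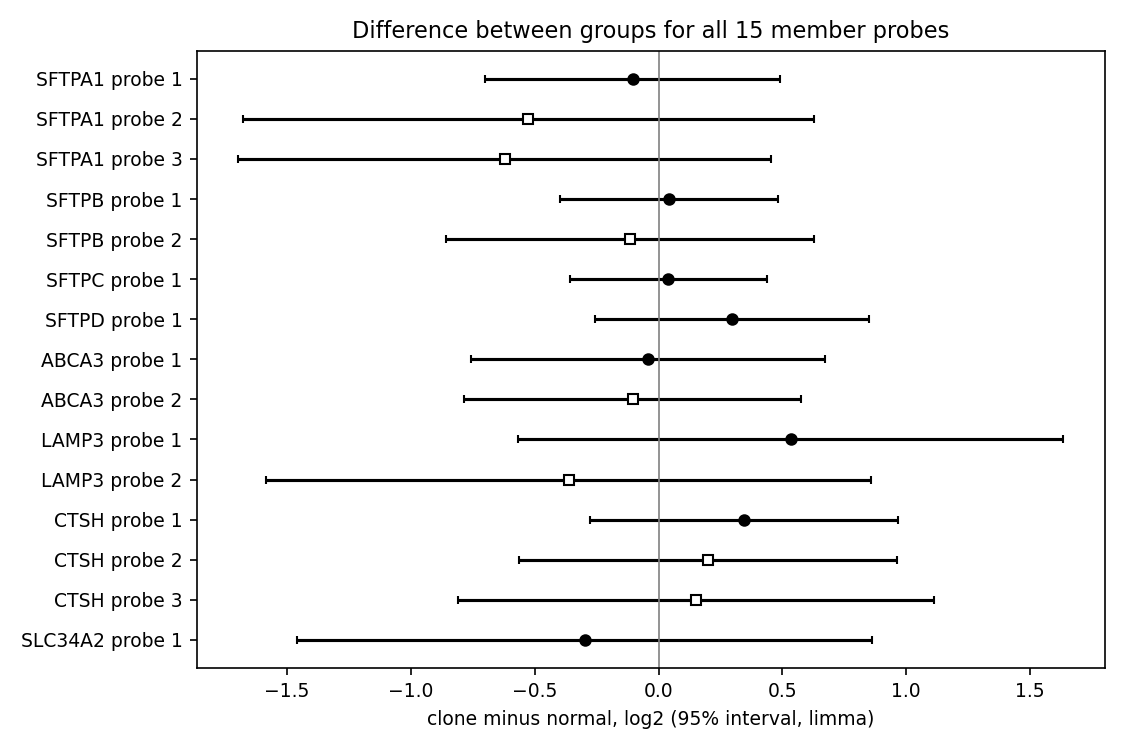
Clone minus normal difference on the log2 scale (x axis) for each of the 15 probes (y axis), with the 95% interval from limma. Filled circles are the brightest probe of a gene and open squares its other probes. Every interval spans 0, the narrowest being that of SFTPC, from -0.36 to 0.44.

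SFTPC, the hydrophobic protein made almost exclusively by type II cells, was measured by 1 probe. The clones, numbered 1 to 4, stood at 7.94, 7.88, 7.45 and 7.87 (log2, relative to the 75th percentile). Normal animals 1 to 4 stood at 7.65, 7.88, 7.74 and 7.70. Only clone 3 was below every normal animal, clone 1 was above all of them, and the groups overlapped. The means were 7.78 ± 0.23 in clones and 7.74 ± 0.10 in normal animals (SD, n = 4 each), and the difference allowed by the 95% interval ran from 0.78-fold to 1.36-fold (limma adjusted p = 0.950). By the size of its difference this probe ranked 32713 of 35636. The clone SD was 2.30 times the normal SD, below the median ratio of all probes.

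The SFTPC probe worked near the top of the range of the arrays. Before centring, its processed signal was 354525, 310141, 190661 and 266633 in clones 1 to 4 (arbitrary units). In normal animals 1 to 4 it was 382823, 362609, 394739 and 384860. Every clone was therefore below every normal animal on the unscaled signal, as was the 75th percentile of the arrays. In the 4 normal animals the probe was the second brightest of the kept probes, at between 94.8% and 99.9% of the brightest lung probe. In clones 1 to 4 it ranked 2, 4, 58 and 9, at 90.5%, 84.4%, 53.2% and 72.3%. On all 8 arrays its value was read from the low-gain pass of the scan and scaled up by the extraction software. The same held on all 8 arrays for the brightest probes of SFTPA1, SFTPB, SFTPD, ABCA3 and CTSH. For LAMP3 it held on 1 array and for SLC34A2 on 0. Whether the signal is compressed near this ceiling was not tested. The brightness of a probe also depends on its sequence, so no order of transcript abundance is read from these ranks.

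**Figure D2:**
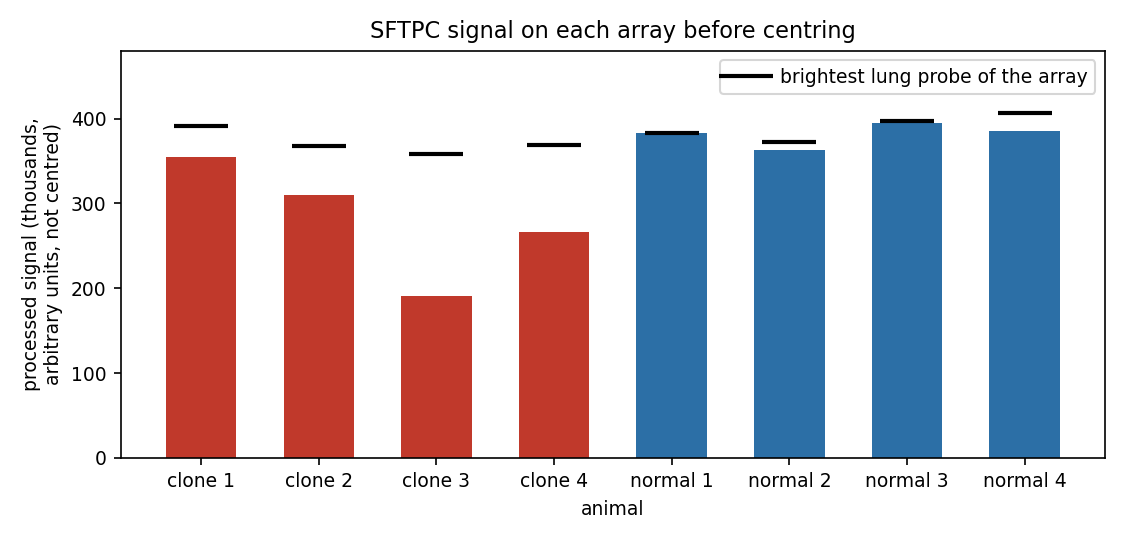
Processed signal of the SFTPC probe (bars, arbitrary units, not centred between arrays) in clones 1 to 4 (red) and normal animals 1 to 4 (blue), with the brightest lung probe of each array as a black line. The 4 normal bars reach between 94.8% and 99.9% of that line, and the clone bars between 53.2% and 90.5%.

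SFTPB, the other hydrophobic protein, without which newborns cannot maintain an alveolar film, had 2 probes. The brighter probe gave 5.0, 4.50, 4.30 and 4.47 in clones 1 to 4. In normal animals 1 to 4 it gave 4.53, 4.44, 4.47 and 4.65. Clone 1 was the highest of the 8 animals and clone 3 the lowest, and clones 2 and 4 lay among the normal animals. The difference was 0.04 (95% interval -0.40 to 0.48, limma adjusted p = 0.953), that is 0.76-fold to 1.40-fold. The dimmer SFTPB probe gave 4.11, 3.25, 2.58 and 2.84 in clones against 3.62, 3.26, 3.26 and 3.1 in normal animals, a difference of -0.11 (-0.86 to 0.63). Both probes placed the clones in the same order, clone 1 highest, then clones 2, 4 and 3.

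SFTPA1, the more abundant of the collectins in surfactant, was measured by 3 probes. Its brightest probe read 6.84, 5.98, 5.62 and 6.03 in clones 1 to 4, against 6.11, 6.16, 6.35 and 6.26 in normal animals. Clone 1 was above every normal animal and the other 3 clones were below every normal animal. The difference over all 8 animals was -0.10 (-0.70 to 0.49, limma adjusted p = 0.905). The second SFTPA1 probe gave 2.72, 0.85, 0.42 and 0.29 in clones against 1.43, 1.28, 1.92 and 1.74 in normal animals. On the dimmest the clones gave 1.91, 0.07, -0.20 and -0.39 and the normal animals 0.85, 0.78, 1.22 and 1.03. Each of the 3 probes thus placed clone 1 above and clones 2, 3 and 4 below all normal animals.

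The dimmer SFTPA1 probes were called only when clone 1 was left out or given a low weight. Over all 8 animals the middle and dimmest SFTPA1 probes differed by -0.53 and -0.62 (limma adjusted p = 0.713 and 0.629). Without clone 1 the differences were -1.08 (adjusted p = 0.0360) and -1.14 (adjusted p = 0.0203), and both probes were called, whereas the brightest probe stood at -0.35 (adjusted p = 0.216). These were 2 of the 15 member probes, where 7.20% of all probes were called without clone 1. Array weights, which set the weight of clones 1 and 3 to 0.116 and 0.0978, called the same 2 SFTPA1 probes and the brighter LAMP3 probe. They also called 32.1% of all probes.

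SFTPD, the second collectin, had 1 probe and the largest positive difference among the 4 surfactant proteins. Clones 1 to 4 measured 5.47, 4.70, 4.49 and 4.94, and the 4 normal animals 4.45, 4.54, 4.50 and 4.92. Clone 1 was again above every normal animal, clone 4 was slightly above the highest of them, and clone 3 lay within their range. The difference was 0.30 (-0.25 to 0.85, limma adjusted p = 0.656), or 0.84-fold to 1.80-fold, and was 0.11 without clone 1. It ranked 16766 of 35636 by size. The values of clones 2 to 4 lay below those of all normal animals for SFTPA1 and not for SFTPD.

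ABCA3, the lipid pump of the lamellar body, was measured by 2 probes that ordered the groups alike. Its brightest probe gave 5.72, 4.53, 4.27 and 4.45 across the clones, against 4.67, 4.79, 4.96 and 4.72 across the normal animals. As with SFTPA1, clone 1 was above and the other clones were below all 4 normal animals. The group difference was -0.04 (-0.76 to 0.67, limma adjusted p = 0.971), or 0.59-fold to 1.59-fold. The second ABCA3 probe gave a difference of -0.11 (-0.78 to 0.57). Without clone 1 the probes stood at -0.37 and -0.41, without a call.

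LAMP3, a lysosome-associated membrane protein of lamellar bodies that mature dendritic cells also express, was measured by 2 probes. The brighter probe gave 3.86, 2.88, 1.19 and 2.72 in clones 1 to 4, against 2.20, 2.18, 2.06 and 2.07 in normal animals. Clones 1, 2 and 4 were above every normal animal and clone 3 was below them. The clone SD of 1.10 was 15.6 times the normal SD of 0.07, and the difference was 0.53 (-0.57 to 1.64, limma adjusted p = 0.695). It was 0.13 without clone 1 (adjusted p = 0.861) and 1.03 without clone 3 (adjusted p = 0.107). The dimmer LAMP3 probe placed clone 1 above and the other 3 clones below all normal animals. It gave -0.62, -2.31, -3.53 and -2.78 in clones against -1.92, -2.06, -1.88 and -1.94 in normal animals, a difference of -0.36 (-1.59 to 0.86). The 7 of 9 listed markers of mature dendritic cells that were measured (CCR7, FSCN1, CCL22, CD83, IDO1, CD86 and BATF3) had a median difference of 0.12. Their mean level lay between -0.26 and 0.60 in clones and between -0.15 and 0.21 in normal animals, relative to the normal mean. Their part in the LAMP3 values was not tested.

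The 2 LAMP3 probes were also compared with each other, the dimmer having a processed signal between just 94.6 and 938. A constant added to all log2 values of an array cancels in this comparison, but quantile normalization and background correction do not. Within each array the dimmer probe was below the brighter one in every animal. The difference lay between -5.49 and -4.48 in clones and between -4.23 and -3.94 in normal animals. The shift was -0.90 (exact two-sided permutation p = 0.0286, the smallest that 4 against 4 allows, and 0.257 after Benjamini-Hochberg adjustment over 9 pairs of member probes). LAMP3 was the sole pair of the 9 in which the groups did not overlap. That share is near the 11.6% of 18062 pairs of probes of the same gene on the array. For SFTPA1 the dimmest probe was shifted by -0.52 relative to the brightest (exact p = 0.143), and for ABCA3 the shift between probes was -0.06 (exact p = 0.229).

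CTSH, a cathepsin that acts on the SFTPB and SFTPC precursors and is also expressed by macrophages, had 3 probes. The brightest gave 7.31, 6.28, 6.64 and 6.10 across the clones, against 5.99, 6.39, 6.30 and 6.27 across the normal animals. Clones 1 and 3 were above every normal animal, so that clone 3 stood high for CTSH while it was low for 6 of the other genes. The difference was 0.35 (-0.28 to 0.97, limma adjusted p = 0.647), or 0.82-fold to 1.96-fold, and was 0.10 without clone 1. The other CTSH probes gave 0.20 (-0.56 to 0.96) and 0.15 (-0.81 to 1.11). Beside these values, all 7 of 10 listed macrophage markers that were measured (CD68, MSR1, C1QA, C1QB, CD163, AIF1 and CSF1R) had a negative difference, with a median of -1.21. At an unadjusted p under 0.05 (limma) 4 of these 7 were lower, and 13.0% of all genes had such a p. The mean macrophage level was -0.85, -1.55, -0.16 and -1.74 in clones 1 to 4 and between -0.16 and 0.28 in normal animals. Its part in the CTSH values was not tested.

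SLC34A2, the phosphate cotransporter, was measured by 1 dim probe, with a processed signal between 75.7 and 391. The clones gave -3.63, -1.97, -3.85 and -1.55, and the normal animals -2.49, -2.31, -2.39 and -2.63. Clones 1 and 3 were below all normal animals and clones 2 and 4 above all of them, so the clones fell on both sides of a narrow normal range. The difference was -0.30 (-1.46 to 0.86, limma adjusted p = 0.853), or 0.36-fold to 1.82-fold. The clone SD of 1.16 was 8.48 times the normal SD. Across the same clones the mean of 10 general epithelial genes (EPCAM, CDH1, KRT8, KRT18, KRT7, CLDN3, CLDN4, CLDN7, ELF3 and ESRP1) stood at 0.78, -0.48, 0.80 and -0.50 relative to the normal mean, and between -0.29 and 0.23 in the normal animals. It was thus high in the 2 clones with low SLC34A2, and its part in these values was not tested.

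**Figure D3:**
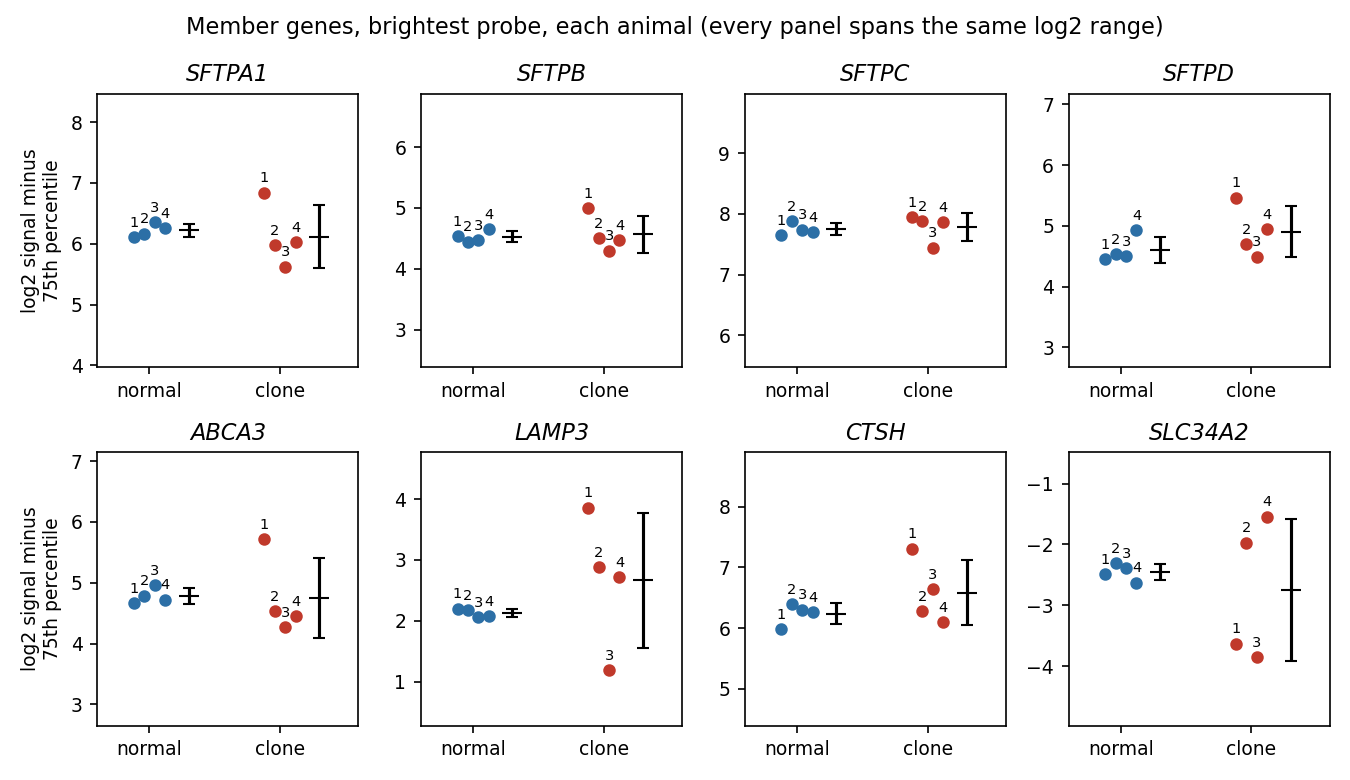
Log2 signal minus the 75th percentile of the array (y axis) of the brightest probe of each gene in the 4 normal animals (blue) and 4 clones (red), numbered by animal, with mean and SD (n = 4) as black bars. Every panel has the same height in log2 units. Normal animals lie close together in each panel, while LAMP3 and SLC34A2 in clones have an SD of 1.10 and 1.16.

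For all 8 genes the values varied more among the clones than among the normal animals, as they did for 91.1% of all 9867 genes. In clone 1, 7 of the 8 genes were above the range of the 4 normal animals and SLC34A2 was below it, with a median of 0.74 over the normal mean. LAMP3 was highest there, at 1.73, followed by CTSH at 1.07 and ABCA3 at 0.93. In clone 3, 6 of the 8 were below the range, CTSH was above it and SFTPD was the sole gene inside, with a median of -0.41. Clones 2 and 4 had medians of 0.07 and 0.03. Both had SFTPA1 and ABCA3 below and LAMP3 and SLC34A2 above the normal range.

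For comparison, 40.0% of all 9867 genes were above the normal range in clone 1 and 36.9% below it, and 39.2% were above and 41.1% below it in clone 3. Positions outside the range were thus common among all genes in every clone. A normal animal set against the other 3 had member medians between -0.13 and 0.04, smaller in size than those of clones 1 and 3. All 15 probes had a larger SD in clones, with a median ratio of 4.24. So did 90.0% of all kept probes, with a median ratio of 3.07. Scaled to the 10 epithelial genes, clone 1 had 1 and not 7 genes above the normal range. Scaled to the spike-ins it had 3. The count of 6 genes below the range in clone 3 was 3 with normexp and 75th percentile centring. It was 8 with normexp and quantile normalization and scaled to the spike-ins, and 7 with quantile normalization and scaled to the epithelial genes.

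**Figure D4:**
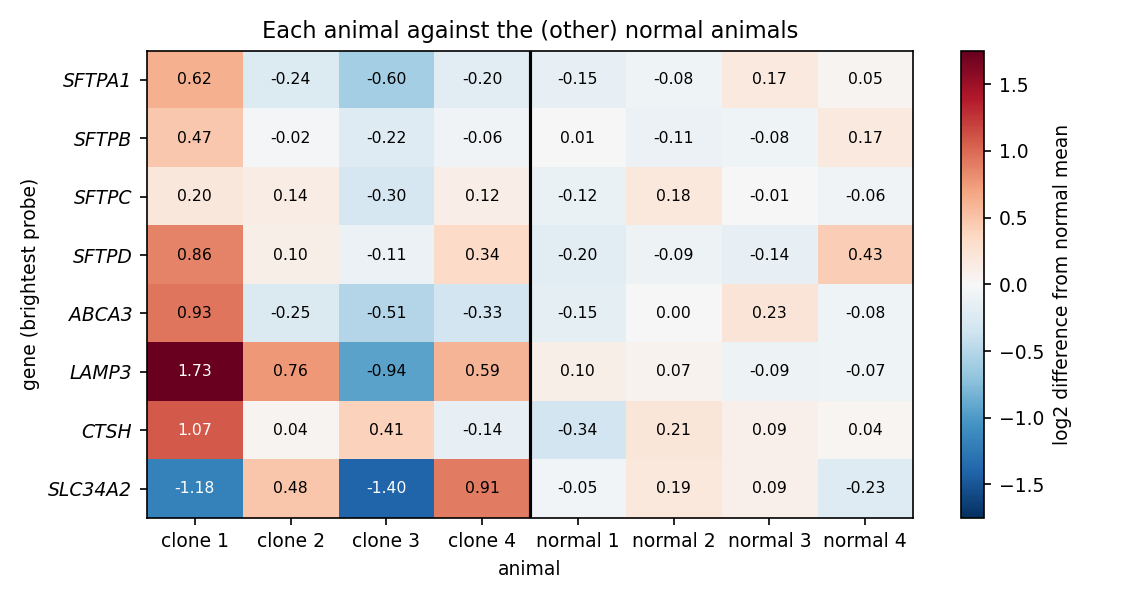
Log2 difference of each animal (columns) from the mean of the 4 normal animals, or of the other 3 for a normal animal, for the brightest probe of each gene (rows). Red is higher and blue lower. Clone 1 is red for every gene but SLC34A2 (-1.18), clone 3 is blue for every gene but CTSH (0.41), and the normal animals lie between -0.34 and 0.43.

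In 4 of the 5 genes with several probes the brightest probe had a smaller SD among clones than each dimmer probe, ABCA3 being the exception. The share over all genes with several probes was not computed. The SFTPA1 clones spanned 1.22 on the brightest probe and 2.30 and 2.43 on the others. For SFTPB the spans were 0.70 and 1.53, and for CTSH 1.21 against 1.62 and 2.07. For LAMP3 they were closer, at 2.67 and 2.91, and for ABCA3 they were 1.45 and 1.29. The brightest probes of SFTPA1, SFTPB, CTSH and ABCA3 were read from the low-gain pass on all 8 arrays. Their dimmer probes were read from it on between 0 and 3 arrays, and the 2 LAMP3 probes on 1 and 0. The cause was not tested.

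The direction of several differences depended on the scale. With quantile normalization SFTPC differed by -0.32 (-0.77 to 0.13, limma adjusted p = 0.536), SFTPB by -0.13 and SFTPA1 by -0.50, and only SFTPD (0.11) and LAMP3 (0.49) stayed positive. SFTPC and SFTPB were also negative, both at -0.11, when values were set against the 10 epithelial genes of the same array. With normexp background correction and 75th percentile centring 7 of the 8 genes were positive, SLC34A2 being negative, while the median of all probes was -0.32. Under these scalings 0 of the 15 probes passed.

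Spike-in RNA is foreign RNA added to each labelling reaction, and scaling to it keeps any shift shared by all lung probes, whose source was not tested. On the 75th percentile scale, the median difference of the 10 spike-in probes was 0.67, all being higher in clones. Scaled to the spike-ins, all 8 genes were lower in clones, with a median of -0.64, and the median of all 35636 probes was -0.71. SFTPC then measured 9.34, 9.22, 8.45 and 8.98 in the clones. The normal animals measured 9.61, 9.48, 9.81 and 9.67, and the groups did not overlap. Its difference was -0.65 (-1.19 to -0.10), with a limma adjusted p of 0.0664 and an exact two-sided permutation p of 0.0286. SFTPC was the sole probe of the 15 without overlap on this scale, on which 35.4% of all probes had none and 30.0% of all probes were called. None of the 15 member probes was called. Relative to the median of all probes the SFTPC difference was 0.06, that of SFTPB 0.06, that of SFTPA1 -0.08 and that of ABCA3 -0.02. It was larger for LAMP3 (0.56), CTSH (0.37), SFTPD (0.32) and SLC34A2 (-0.28).

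**Figure D5:**
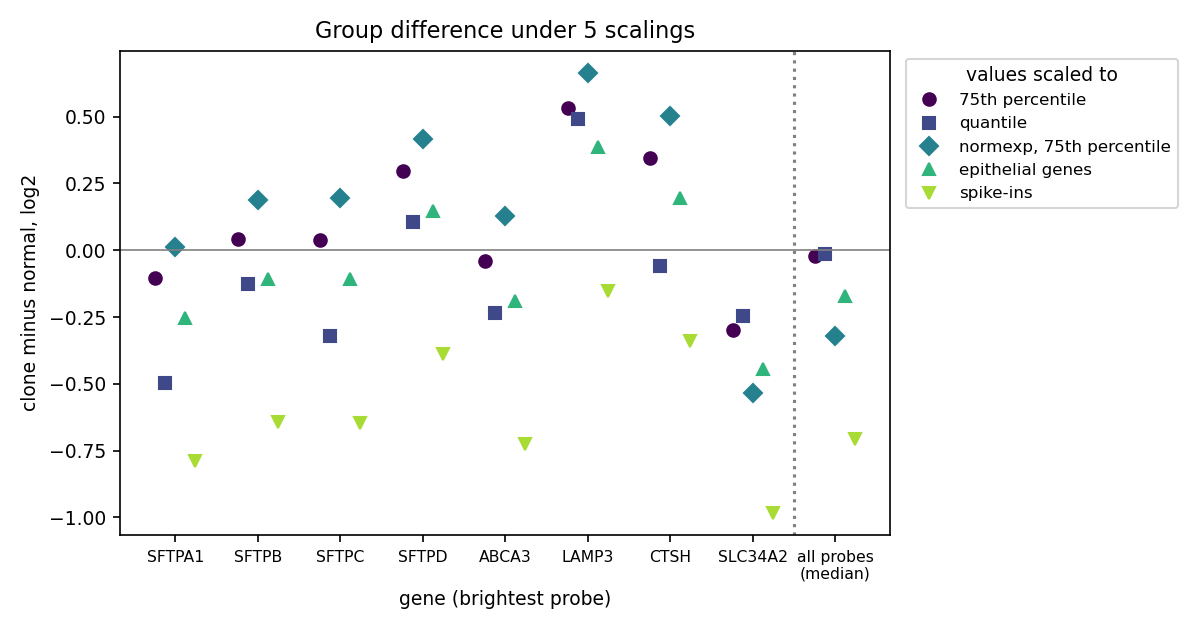
Clone minus normal difference (log2, y axis) of the brightest probe of each gene under 5 scalings (marker shapes and colours), with the median of all kept probes at the right. Scaled to the spike-ins all genes lie below 0, with a median of -0.64, and so does the median of all probes, at -0.71.

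Other genes of the surfactant pathway showed the same absence of calls. Of 22 listed genes of alveolar type II cells 13 were measured, and 0 passed in either direction, with a median of 0.08 and 9 positive differences. Among all 9867 genes 0.182% passed and 13.0% had an unadjusted p under 0.05. NKX2-1, the transcription factor that activates surfactant genes, measured 1.69 ± 0.50 in clones and 2.01 ± 0.18 in normal animals (SD, n = 4 each), a difference of -0.31, which was -0.47 without clone 1 and -0.10 without clone 3. S100G, a vitamin D-dependent calcium-binding protein, was the sole type II list gene with an unadjusted p under 0.05. It measured 4.25 ± 1.22 in clones and 1.63 ± 0.39 in normal animals, a difference of 2.62 (1.35 to 3.88, limma adjusted p = 0.121). Both S100G probes had the same sign, and without clone 1 the difference was 2.05 (adjusted p = 0.0193). The mucin MUC1 differed by 0.47, the fatty acid binding protein FABP5 by 1.31 and the transcription factor CEBPA by 0.27 (adjusted p between 0.502 and 0.572). Without clone 1 these were 0.16, 0.50 and 0.24. The level of this list was 0.96 in clone 1 and between 0.03 and 0.15 in the other 3 clones, relative to the normal mean.

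Genes that build and move lamellar bodies and related organelles were measured for 26 of 32 listed names, with 0 called, 12 positive and 14 negative differences and a median of -0.16. P2RY2, the purinergic receptor through which ATP triggers surfactant release, differed by -0.67 (-1.40 to 0.05), a sign shared by 3 of its 4 probes. Its brightest probe was dim, at -3.70 in clones and -3.02 in normal animals. That probe differed by -0.32 with normexp and quantile and by -0.77 with normexp and 75th percentile centring. The membrane fusion protein SNAP23 differed by -0.45, the exocytosis GTPase RAB3D by -0.57 and the adaptor subunit AP3S1 by 0.46. Their limma adjusted p lay between 0.418 and 0.489. AP3S1 stood at 0.22 without clone 1 and SNAP23 at -0.26 without clone 3. RAB3D was also dim, at -3.56 in clones and -2.99 in normal animals. It differed by -0.26 with normexp and quantile and by -0.79 with normexp and 75th percentile centring. The lysosomal membrane proteins LAMP1, LAMP2 and CD63 differed by 0.02, 0.08 and 0.04. Of 13 listed genes of propeptide processing and folding 9 were measured, again with 0 called, and their median was -0.14. The cathepsin CTSD differed by 0.42 and the chaperone DNAJB9 by -0.41 (adjusted p = 0.389 and 0.429). The proprotein convertase FURIN, dim at -5.37 in clones and -5.05 in normal animals, differed by -0.33, and between -0.49 and -0.17 with 1 animal left out. Its difference depended on background correction, being -0.02 with normexp and quantile and -0.76 with normexp and 75th percentile centring. The cathepsin CTSL exceeded background in just 2 of 4 clones and 2 of 4 normal animals, so no difference is read from it.

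Markers of other lung cells were measured beside the surfactant genes. The 10 alveolar type I genes had a median of -0.17, with AGER, which marks these cells, at 0.06. HOPX differed by -1.18, CYP4B1 by -2.07 and AQP5 by -0.26, while PDPN differed by 0.98 in the other direction (limma adjusted p between 0.119 and 0.708). Their level was -0.95 in clone 1, the animal in which 7 surfactant genes were high, and between -0.30 and 0.20 in the other clones. All 3 of 8 listed airway secretory and 7 of 9 listed ciliated genes that were measured had a negative difference, with medians of -2.07 and -1.09. The airway secretory level was 0.14 in clone 1, and -2.54, -2.02 and -3.75 in clones 2, 3 and 4. In normal animals it lay between -0.78 and 1.38. The ciliated level lay between -1.58 and -0.37 in clones and between -0.60 and 0.28 in normal animals. Endothelial genes stood at -1.69 in clone 1 and between -0.06 and 0.28 in the other clones. Fibroblast genes had a median of 0.55, and blood genes 0.21 with 2.09 in clone 1. None of these lists held a called gene, where 0.182% of all genes were called. At an unadjusted p under 0.05 (limma), 2 airway secretory, 4 ciliated and 2 type I genes were lower. Higher were 1 type I and 2 fibroblast genes, and 0 endothelial or blood genes had such a p. Among all genes the share was 13.0%. The part of these cell types in the surfactant values was not tested.

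The 3 member genes that varied most over the 8 arrays were SLC34A2, LAMP3 and ABCA3, with an SD of 0.78, 0.78 and 0.44 against a median of 0.44 over all genes. Likeness to them was measured as the root mean square difference between mean-centred log2 profiles over the 8 arrays. Nearest to ABCA3 was NPC2, a lysosomal cholesterol-transfer protein that was on the type II list, at 0.08, followed by TMEM205 at 0.08 and RNF181 at 0.10, where the median over all genes was 0.57. The genes nearest to LAMP3 were TTF2 (0.17), DSN1 (0.18) and SLC12A2 (0.20), and those nearest to SLC34A2 were EPC2 (0.17), RHOBTB1 (0.18) and SYDE2 (0.19). The median over all genes was 0.83 for both.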

How the data were processed

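Per the file headers, the deposited scanner files came from Agilent Feature Extraction (10.7 in the submitters' processing notes), and the processed intensity used here was already background-subtracted by that program. The authors' deposited table held a log2 value per probe, correlated at 0.999 or more with the log2 signal of each array. Its 75th percentile was 10.54 in every column and its medians were 7.89. How its columns were made alike is not stated in the labels, and the table served as an alternative only.

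Control and outlier-flagged spots were left out (between 2 and 21 of 43803 per array), spots of a probe were averaged, and log2 signals were centred on the 75th percentile of each array. Of 43653 probes 35636 were kept. Accessions were matched without version to RefSeq genes of ARS-UCD2.0; 23492 probes obtained a symbol. The array design names another build, so no coordinates or sequences are given. The brightest kept probe stands for a gene.

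Clones were set against normal animals in limma 3.58.1 (R 4.3.3; lmFit, eBayes, Benjamini-Hochberg over all kept probes, all 8 arrays). In data simulated on 35590 probes, 7, 30, 40 and 47 of 50 probes changed by 1, 2, 3 and 4 (log2) were recovered. Of 131 calls 7 were false. The simulation drew probes independently, with the same SD in both groups, whereas clones varied more in 90.0% of the kept probes. Its recovery may therefore differ from that in these data. Nothing says whether animals shared a dam or donor line, so p-values measure the spread between these samples. The members and lists were chosen with earlier results of these data known. From each other list, the rule named up to 4 genes with the smallest p; NKX2-1, AGER, LAMP1, LAMP2 and CD63 fall outside it and were chosen for their roles after their values were seen. For likeness it named the 3 nearest genes to the 3 most variable members. The comparison of probes within a gene and the unscaled signals were added after the data were seen. Scanner files lack the mean signal, so normexp (offset 50) used the median signal. Replicate numbers did not pair the animals: same-numbered deviations correlated at 0.09, 0.10, -0.20 and -0.10.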

Additional observations from a re-analysis of the deposited data

Results flagged for a closer look

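Among 30 groups of 4 animals (15 probes in both groups), 2 held an animal whose gap to its nearest neighbour was too large a share of the range by Dixon's criterion, and chance flags about 1 in 20 such groups. Clone 3 stood at 7.45 for SFTPC, with the other clones between 7.87 and 7.94. Clone 1 stood at 2.32 on the second ABCA3 probe, with the other clones between 1.03 and 1.20.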

How the results depend on the processing

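Of 323 member probe results under alternatives, 276 kept their direction and their side of the threshold, 42 had the opposite sign and 5 passed the threshold. Some alternatives leave each estimate as it was, so that the direction could not change. These were the exact permutation test, no filter, the filter on all 8 arrays, trend and robust moderation and the replicate block. The authors' deposited table gave nearly the same values as quantile normalization. The causes were not tested except where stated. Changed probes over the whole array numbered 63, and 10692 scaled to the spike-ins, 0 with normexp and 75th percentile centring (limma; 2280 at an unadjusted p under 0.05), 25 with normexp and quantile, 17 with the filter on all 8 arrays (fewer probes tested), 145 with trend and robust moderation, 11449 with array weights and 13 with a replicate block. Leaving out 1 animal gave between 17 and 2566, with 2566 without clone 1 and 445 without clone 3. The replicate block called none of the member probes.

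Member probes called numbered 3 of 15 with array weights, where 32.1% of all probes were called. With 1 animal left out they numbered between 0 and 2, with 2 without clone 1, where 7.20% of all probes were called. At an unadjusted p under 0.05 there were 4 scaled to the spike-ins, 6 with array weights and between 0 and 5 with 1 animal left out. The shares of all probes were 51%, 44.5% and between 8.22% and 26%, the 5 and the 26% being without clone 1. Genes of the other lists that passed, counted over all those lists together, numbered 37, 30 and between 0 and 7 under the same settings. Of all probes 30.0%, 32.1% and, without clone 1, 7.20% passed under those settings. No result about the lists is read from these counts. The median member difference, 0.04, was -0.64 scaled to the spike-ins, -0.18 with quantile normalization and in the authors' deposited table, -0.11 scaled to the epithelial genes, -0.10 with normexp and quantile, and 0.19 with normexp and the 75th percentile. With 1 animal left out it lay between -0.00817 and 0.14.

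Signs reversed as follows. With quantile normalization SFTPB stood at -0.13, SFTPC at -0.32 and CTSH at -0.0581. In the authors' deposited table they stood at -0.13, -0.32 and -0.0575, and with normexp and quantile at -0.14, -0.33 and -0.00523. Scaled to the spike-ins, SFTPB stood at -0.64, SFTPC at -0.65, SFTPD at -0.39, LAMP3 at -0.15, the CTSH probes at -0.34, -0.49 and -0.53, MUC1 at -0.22, CEBPA at -0.42, AP3S1 at -0.22 and CTSD at -0.26. Scaled to the epithelial genes SFTPB and SFTPC both stood at -0.11. With normexp and the 75th percentile SFTPA1 stood at 0.0109, the dimmer SFTPB probe at 0.0423, ABCA3 at 0.13 and CTSL, detected on only 4 of 8 arrays, at -0.36. With array weights SFTPB stood at -0.0557, the CTSH probes at -0.00512, -0.24 and -0.44, and SLC34A2 at 0.61. As the mean of its probes SFTPB stood at -0.0361.

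With 1 animal left out the ranges were -0.10 to 0.13 and -0.42 to 0.0911 for the SFTPB probes, -0.0135 to 0.15 for SFTPC, -0.35 to 0.0597 for the brightest SFTPA1 probe, -0.37 to 0.12 and -0.41 to 0.0177 for ABCA3, -0.93 to 0.0440 for the dimmer LAMP3 probe, -0.13 to 0.41 and -0.26 to 0.43 for the dimmer CTSH probes, and -0.70 to 0.0701 for SLC34A2. Without a change of sign, they were 0.13 to 1.03 for the brighter LAMP3 probe, 0.10 to 0.51 for the brightest CTSH probe and 0.11 to 0.43 for SFTPD, each lowest without clone 1.

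A slide block could not be fitted because each slide holds 1 group. With 4 animals a group and no alternative scaling, the interval of SFTPC still allows a fall to 0.78-fold. That of LAMP3 allows a rise to 3.11-fold. Both limits depended on the scale. For SFTPC the lower limit (log2) was -0.77 with quantile normalization, -1.19 scaled to the spike-ins and -0.33 when centred on the median of kept probes. For LAMP3 the upper limit was 1.07 scaled to the spike-ins and 1.77 with normexp and percentile centring. SFTPC read near the brightest signal of the arrays and SLC34A2 among the dim probes.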
